A study of Drosophila melanogaster with 12 samples.

Results

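Chromosome 4 is the smallest chromosome of Drosophila melanogaster. Its protein-coding genes on the BDGP6 annotation were taken as a set, leaving out the symbols that begin with Rp or ATPsyn and any gene with fewer than 10 counts over the 12 libraries. The chromosome carried 110 of the genes in the count files, of which 79 were protein-coding. RpS3A and ATPsynbeta were left out by symbol and no gene was left out by count, so 77 of 17559 counted gene IDs were members. They lay between JYalpha, which starts at position 879 on chromosome 4, and Cadps, which ends at position 1271759.

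Most of chromosome 4 is packaged like heterochromatin even where genes are transcribed: Heterochromatin Protein 1 lies over the genes, and the histone H3 lysine 9 methyltransferase egg (Setdb1) marks them. A chromosome-specific protein, Pof, binds these genes and raises their output. The chromosome is an autosome, present in the same copy number in males and females, but it descends from a chromosome that served as an X in ancestors of the fly, and among its genes are regulators of embryonic patterning, eye formation and synaptic transmission.

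Polyadenylated RNA was counted in gonads from flies aged 1 to 3 days and kept at 25 °C, with 3 biological replicates in each of 4 groups. These were bam mutant testes, bam mutant ovaries with Sxl RNAi, bam mutant ovaries with mCherry RNAi, and bam mutant ovaries with no RNAi. The ovaries came from virgin females. All groups, controls included, carry the bam mutation, which keeps germ cells from differentiating, and the labels name neither the bam allele nor the driver or hairpin of the RNAi. The study set male against female bam gonads, and set knockdown of Sxl, the switch gene of female identity, against a knockdown of mCherry, a fluorescent protein that flies do not have. Each library held between 16152230 and 25097969 reads assigned to genes.

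Sxl itself averaged 187 ± 42.8 CPM (counts scaled to a common library size and given per 1000000) in Sxl RNAi ovaries and 515 ± 17.1 CPM in mCherry RNAi ovaries (SD, n = 3 each), with a log2 fold change of -1.44 and an adjusted p of 0.0466. Adjusted p-values here and below are from edgeR's quasi-likelihood test with Benjamini-Hochberg adjustment over all genes tested, and the threshold was 0.05. Marker lists of other cell types differed between the tissues. The 10 follicle cell and eggshell genes, which mark somatic cells of the ovary, summed to between 34.5 and 50.2 CPM in testes and between 6495 and 7512 CPM in bam ovaries, and 6 of them, Yp1 among them, were under 1 CPM in testes. The 19 muscle genes summed to between 1997 and 2328 CPM in testes and between 10556 and 14474 CPM in bam ovaries, and 17 were lower in testes. The 11 male accessory gland genes summed to between 71.8 and 1838 CPM in testes and to no more than 4.81 CPM in any ovary. The 10 escort and cap cell genes, which mark other somatic cells of the ovary, summed to between 5678 and 7973 CPM in testes and between 838 and 1269 CPM in bam ovaries. The 7 hub and cyst cell genes, which mark somatic cells of the testis, summed to between 284 and 308 CPM in testes and between 815 and 1209 CPM in bam ovaries. Both sums thus lay on the side opposite to their tissue, the lists share tj and hh, and of 9 escort and cap cell genes tested 2 rose and 3 fell. The 8 germ cell genes summed to between 1222 and 1727 CPM in testes and between 2296 and 2361 CPM in bam ovaries. They went both ways, with 2 higher in testes, 3 lower and 3 not called, and vas and nos were not matched. In whole gonads, fewer cells of a type and less RNA per cell cannot be told apart, and the part of cell makeup in the results below was not tested.

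The chromosome 4 genes were long beside other protein-coding genes. Their median span was 10463 bases, against 2426 bases for other protein-coding genes with at least 10 counts, and exons covered a median of 48.8% of that span, against 84.0%. Their median longest transcript was 3921 bases, against 1843 bases. Averaged over the 12 libraries, 30 members were at 100 CPM or above, 27 between 10 and 100, 16 between 1 and 10, and 4 under 1 CPM. By CPM the highest was eIF4G1, the scaffold of the cap-binding translation initiation complex, at 513 CPM, followed by bt (projectin, a giant muscle protein of the titin family) at 432, Ank (ankyrin, which ties membrane proteins to the cytoskeleton) at 409, gw (GW182, an effector of microRNA silencing) at 405 and PMCA (a plasma membrane calcium pump) at 369 CPM. Per length the order was different. ND-49, a subunit of mitochondrial complex I, led with 153 CPM per kb of its longest transcript, ahead of Arf4 at 124 and CG11076 at 123 CPM per kb, and JYalpha, a sodium pump subunit gene, was lowest at 0.108 CPM per kb.

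In testes set against bam ovaries, chromosome 4 genes were lower far more often than higher. Of the 73 members tested, 27 fell and 3 rose. The 27 that fell were 37.0% of the members, where 16.3% of all 9738 genes tested were lower and 16.4% higher. The median log2 fold change of the members was -0.61, with quartiles of -1.58 and -0.26, and 61 of 73 were below 0, while the median of all genes was 0.012. Across all libraries, 31 of 75 members (41.3%) had all 3 testes below all 9 ovaries, where 18.7% of all genes did. The opposite pattern was seen for 2 members (2.67%), Sox102F and CG11076, where 17.3% of all genes showed it. The mean of the testes was the lowest of the 4 group means for 61 of the 77 members, a count for which no share over all genes was taken.

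**Figure D1:**
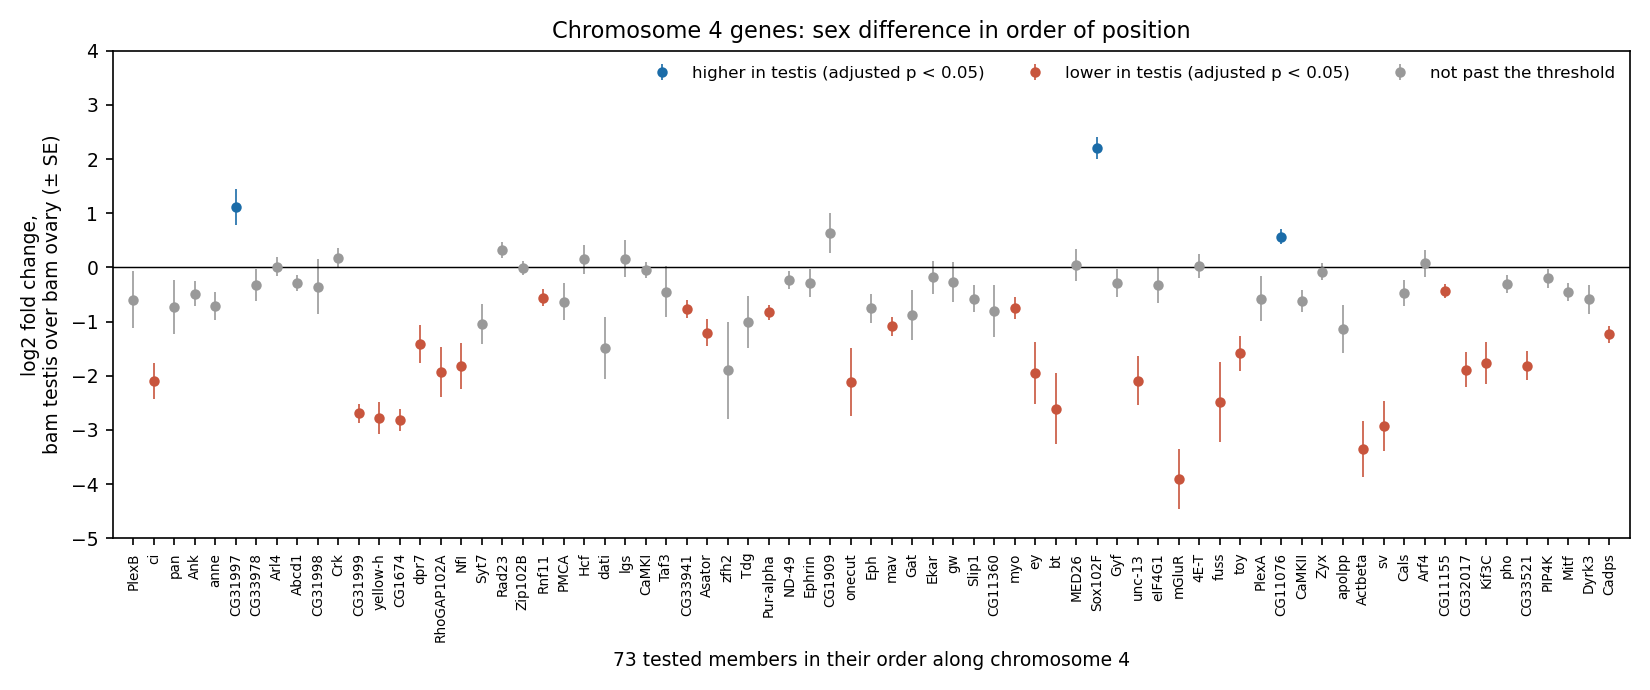
Log2 fold change of each of the 73 tested chromosome 4 genes, bam testes over bam ovaries, in order along the chromosome; bars are 1 SE and n = 3 libraries per group. Most points lie below 0 along the whole chromosome, and the 3 genes that rose, CG31997, Sox102F and CG11076, are far apart.

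The members' share of a library's protein-coding counts was lower in testes than in bam ovaries on average, with overlap. They held 0.574%, 0.446% and 0.825% of protein-coding counts in the testes. In bam ovaries they held 0.987%, 1.01% and 0.752%, in Sxl RNAi ovaries 0.896%, 1.06% and 0.987%, and in mCherry RNAi ovaries 0.979%, 0.854% and 1.06%. The testis range overlapped the bam ovary range through replicate 3 of each.

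Libraries differed in another quantity that moved with this share. Genes of the other autosomes with transcripts of at least 5 kb took 10.1%, 5.43% and 15.4% of autosomal counts in testes and 17.0%, 16.9% and 10.3% in bam ovaries, with 14.3% to 16.2% in Sxl RNAi ovaries and 12.1% to 17.9% in mCherry RNAi ovaries. Within each group, the library lowest in long transcripts was also the lowest in its chromosome 4 share. Testis replicate 1 and bam ovary replicate 3 had nearly the same long-transcript share, 10.1% and 10.3%, and held 0.574% and 0.752% of counts on chromosome 4 members. That pair is 1 library per group, picked after the values were seen, so no conclusion is drawn from it. When the trend of counts with transcript length was removed from every library, an alternative added after the data were seen, 38 members fell, 5 rose and the members' median was -0.45, and under that setting 26.5% of all genes were lower and 22.2% higher. Among genes with transcripts of 3 to 7 kb, 18 of 41 members were lower in testes (43.9%) with a median of -0.72, against 17.6% of 1800 genes of chromosomes 2 and 3 with a median of -0.13. The part of transcript length in the members' lower values was not tested, nor was what else the long-transcript share carries.

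**Figure D2:**
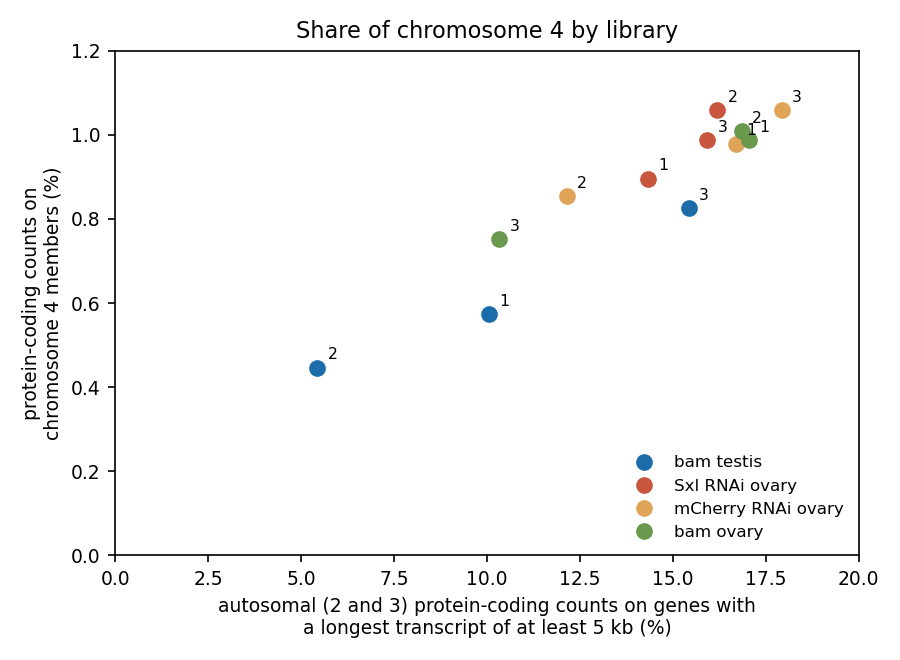
Share of each library's protein-coding counts on the chromosome 4 members (vertical axis, percent) against the share of autosomal counts on genes with transcripts of at least 5 kb (horizontal axis, percent), 1 point per library and 3 per group. The testes lie at 0.446% to 0.825% on the vertical axis, and libraries poor in long transcripts lie low on both axes in each group.

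Beside the other chromosomes, the chromosome 4 genes stood at the low end. Of protein-coding X genes, 28.2% were lower and 11.2% higher in testes, with a median log2 fold change of -0.40. For chromosomes 2 and 3 together the shares were 13.1% lower and 17.7% higher, with a median of 0.10. Long genes of those autosomes, with spans of at least 5 kb, were lower in 22.1% and higher in 11.7%, with a median of -0.18. The 61 members with spans that long were lower in 39.3% and higher in 1.64%, with a median of -0.74. These shares describe the arms and no test was made between them.

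**Figure D3:**
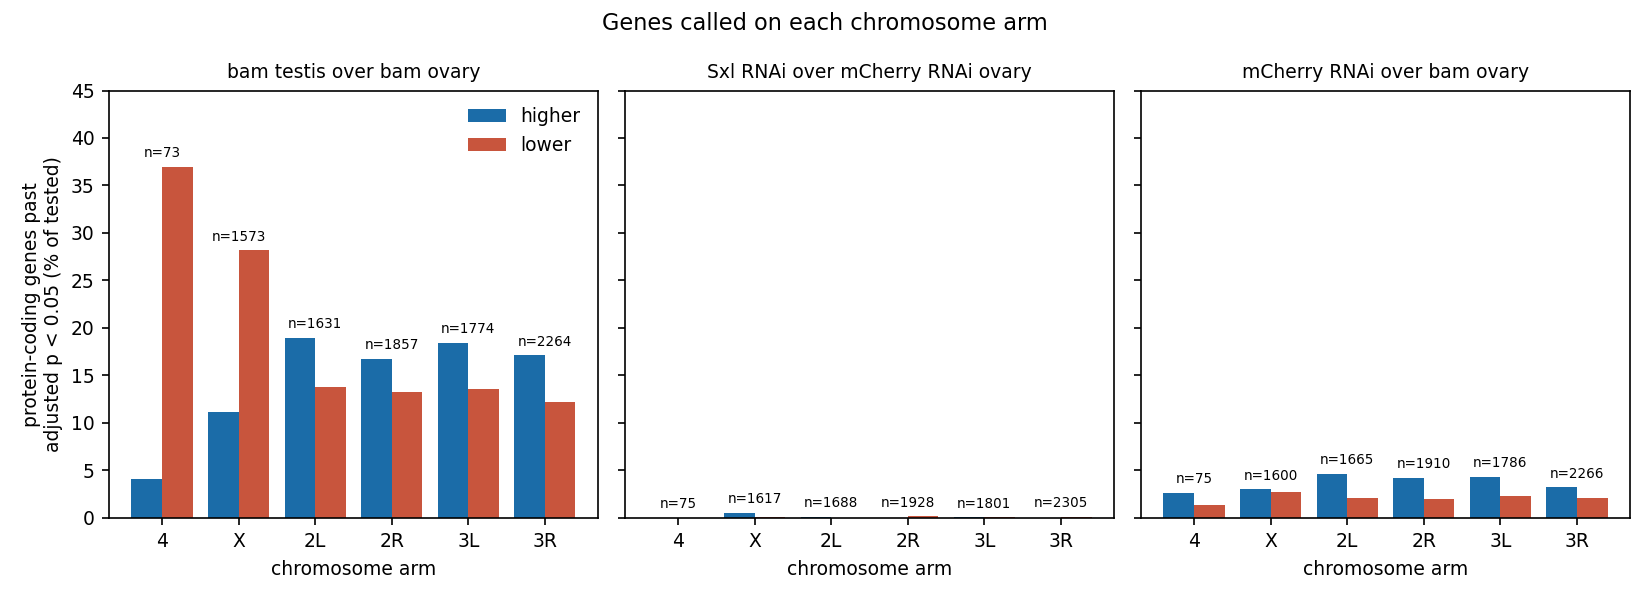
Percent of tested protein-coding genes called higher and lower on each chromosome arm in the comparisons of bam testes with bam ovaries, Sxl RNAi with mCherry RNAi ovaries, and mCherry RNAi with bam ovaries. In testes against bam ovaries chromosome 4 has the highest bar for lower genes, 37.0%, and the lowest for higher genes, 4.11%.

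The drop in testes was spread along the chromosome rather than placed in 1 block. The members were divided by position into 4 blocks of nearly equal number, taken here by rising coordinate. In them 7 of 18, 5 of 19, 8 of 18 and 7 of 18 tested genes were lower in testes, where 16.3% of all genes were. The block with 5 of 19 lay nearest to that share. The medians were -0.73, -0.56, -0.77 and -0.58, and the blocks were not tested against each other. By level, the members at 50 CPM or more fell less often than the fainter ones, in counts that were not tested. Of the 45 at 50 CPM or more, 9 fell and 1 rose, with a median of -0.45. The share that fell was near the 16.3% of all genes, whose median was 0.012. Those are genes of any level, and no shares by level were taken for them. Of the 7 at 20 to 50 CPM, 5 fell and 1 rose, of the 9 at 5 to 20 CPM, 6 fell and 1 rose, and of the 12 tested under 5 CPM, 7 fell. Among those under 5 CPM, sv, fuss, Actbeta and onecut passed the filter on low counts only through the bam ovaries. A fall in testes was thus favoured in advance for them, and the count under 5 CPM holds them. The members at 50 CPM or more included eIF4G1, gw, Ank, PMCA, Rad23 and Zip102B, none of which passed the threshold.

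A run of 3 neighbours stood out, picked after their values were seen. CG31999 (FBgn0051999) lies at 215009 to 227748 on the minus strand, yellow-h (FBgn0039896) at 227922 to 230428 on the plus strand and CG1674 (FBgn0039897) at 230730 to 245903 on the plus strand of chromosome 4 in BDGP6. CG31999 had 11.1, 12.4 and 14.0 CPM in testes, against 89.2, 84.4 and 68.7 CPM in bam ovaries. It stood between 100 and 135 CPM in the other 6 ovary libraries, so no testis came near any ovary. Its log2 fold change over bam ovaries was -2.69 ± 0.17 (SE, n = 3 each) with an adjusted p of 0.000116. CG1674 had 16.3, 24.0 and 21.6 CPM in testes, against 157, 158 and 120 CPM in bam ovaries, a log2 fold change of -2.82 ± 0.20 (adjusted p = 0.000169). yellow-h, a member of the family of secreted proteins named for the pigment gene yellow, had 1.61, 1.15 and 1.99 CPM in testes and between 9.61 and 13.1 CPM in the 3 bam ovaries. Its log2 fold change was -2.78 ± 0.30 (adjusted p = 0.000849). The groups did not overlap for any of the 3 genes, where 24.2% of all genes had every testis below every bam ovary. On 1 side their neighbour Crk, an adaptor of receptor tyrosine kinase signalling, had 0.17 (adjusted p = 0.521). On the other the next genes also fell: dpr7, an immunoglobulin-domain surface protein, with -1.42 (adjusted p = 0.0219), RhoGAP102A with -1.93 (0.0213) and NfI with -1.82 (0.0197), so that 6 genes in a row were lower, up to Syt7 with -1.04 (adjusted p = 0.0774). Without testis replicate 1 the calls of dpr7, RhoGAP102A and NfI were lost (adjusted p = 0.0885, 0.0743 and 0.0725), which leaves a run of 3. yellow-h shares 182 exon bases with an antisense RNA, asRNA:CR46065, which averaged 0.21 CPM in testes and 0.504 CPM in bam ovaries, and the kit did not mark strand.

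Of 14 transcription factors tested, 7 fell and 1 rose in testes, where 16.3% of all genes were lower and 16.4% higher, and the median log2 fold change of the list was -1.70. ci, the transcriptional effector of Hedgehog signalling, lies at 47710 to 57041. It had 27.9, 23.6 and 42.9 CPM in testes, against 161, 156 and 90.7 CPM in bam ovaries. Every testis was below every ovary of all 3 groups, and the log2 fold change was -2.10 ± 0.34 (adjusted p = 0.00447). ci shares 53 exon bases with asRNA:CR43957, which also fell, with a mean of 7.08 CPM in testes and 14.2 CPM in bam ovaries (n = 3 each, adjusted p = 0.0308). sv, a Pax gene of the Pax2/5/8 class needed for sense organ and eye cells, was faint, with 0.120, 0.0768 and 0.262 CPM in testes and 1.19, 1.35 and 1.28 CPM in bam ovaries. It fell with -2.93 ± 0.45 (adjusted p = 0.00379). The 2 Pax6 genes that direct eye formation fell as well, toy with -1.58 (adjusted p = 0.0107) and ey with -1.95 (adjusted p = 0.0428). So did NfI with -1.82 (adjusted p = 0.0197), the homeodomain gene onecut with -2.11 (adjusted p = 0.0420) and the Ski/Sno-family gene fuss with -2.48 (adjusted p = 0.0436). Of these genes, sv, onecut and fuss passed the filter on low counts only through the bam ovaries, which favours a fall in testes. The calls of toy, ey, NfI, onecut and fuss were lost without bam ovary replicate 2, where the adjusted p was 0.0527 for toy, 0.116 for ey, 0.0757 for NfI, 0.134 for onecut and 0.118 for fuss, and all but that of toy were also lost without at least 1 other library.

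The transcription factors that did not pass included ones as far from 0 as some that did. zfh2, a large zinc finger and homeodomain protein, had 1.79, 0.384 and 6.76 CPM in testes and 16.1, 11.8 and 6.84 CPM in bam ovaries. All testes were below all bam ovaries, but by little in replicate 3 of each, and -1.90 ± 0.89 gave an adjusted p of 0.153. pan (TCF) and lgs (Legless), partners at the end of the Wingless pathway, had -0.74 (adjusted p = 0.305) and 0.16 (adjusted p = 0.763). pho, a DNA-binding Polycomb factor, had -0.31 (adjusted p = 0.227), Mitf, the fly homologue of the lysosomal regulators of that family, -0.45 (adjusted p = 0.0820), and dati -1.48 (adjusted p = 0.0932). The forkhead gene fd102C was too faint to test.

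Sox102F, a SoxD-family factor at 800436 to 834393, was the member with the largest rise. It had 26.4, 19.0 and 25.7 CPM in testes, against 5.14, 5.29 and 4.97 CPM in bam ovaries. The lowest testis was above the highest of all 9 ovaries, which was 17.3 CPM in an Sxl RNAi library. The log2 fold change was 2.21 ± 0.20 (adjusted p = 0.000435).

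Of 14 signalling genes tested, which were ligands and receptors with kinases, an adaptor and small GTPases, 4 fell in testes and none rose, where 16.3% of all genes were lower. The list's median was -0.58, and 3 of the 4 were TGF-beta family ligands, all those of the family on this chromosome's list. Actbeta, an activin made by neurons among other cells, had 0.239, 0.154 and 0.524 CPM in testes and 3.76, 4.11 and 2.14 CPM in bam ovaries. It fell with -3.35 ± 0.52 (adjusted p = 0.00379), and no testis reached any ovary. Actbeta passed the filter on low counts only through the bam ovaries, which favours a fall in testes. mav (maverick) had 24.6, 38.5 and 28.1 CPM in testes and 70.9, 65.1 and 56.3 CPM in bam ovaries, a log2 fold change of -1.09 ± 0.18 (adjusted p = 0.00488). myo (myoglianin), the relative of vertebrate myostatin, had 50.7, 51.7 and 72.4 CPM in testes and 100, 106 and 86.6 CPM in bam ovaries. Its groups did not overlap and it fell with -0.74 ± 0.20 (adjusted p = 0.0322), a call lost without testis replicate 1 (adjusted p = 0.110), bam ovary replicate 1 (0.102) or bam ovary replicate 2 (0.115). The kinase Asator fell with -1.20 (adjusted p = 0.0125, and 0.0517 without bam ovary replicate 2). The guidance receptors Eph, PlexA and PlexB had -0.75 (adjusted p = 0.0765), -0.58 (0.329) and -0.60 (0.431).

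Of 11 genes listed for the nervous system and membrane transport, 5 fell and none rose, where 16.3% of all genes were lower, and the median was -0.88. The list also holds yellow-h, which is known for neither. mGluR, the fly's metabotropic glutamate receptor at 936819 to 949441, had the most negative log2 fold change of all tested members. It had 1.79, 0.537 and 2.83 CPM in testes, against 32.7, 27.6 and 20.1 CPM in bam ovaries. No testis reached any ovary, and the log2 fold change was -3.91 ± 0.56 (adjusted p = 0.00280). Cadps, which primes dense-core vesicles for release, had 17.0, 18.6 and 20.4 CPM in testes and 45.4, 49.0 and 37.6 CPM in bam ovaries, with -1.24 ± 0.16 (adjusted p = 0.00165). unc-13, which primes synaptic vesicles, had 30.3, 29.0 and 71.4 CPM in testes and between 128 and 230 CPM in the 3 bam ovaries, with -2.09 ± 0.45 (adjusted p = 0.0135). Its testis replicate 3 was far above the other testes, and the groups did not overlap. unc-13 shares 5696 exon bases with genes on the other strand, so reads there may be missing from its count, or its count may hold some of theirs. The others that fell were yellow-h, described above, and CG11155 with -0.44 (adjusted p = 0.0399, and 0.205 without testis replicate 1). The calcium-regulated kinase CaMKII had -0.61 (adjusted p = 0.0595), the zinc transporter gene Zip102B -0.01 (0.970) and the calcium pump PMCA -0.63 (0.206).

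Of 9 genes of RNA, translation and chromatin, 1 fell, where 16.3% of all genes did, so the count does not set the list apart. That gene was Pur-alpha, a single-stranded nucleic acid binding protein. It had 34.4, 38.0 and 43.4 CPM in testes and 70.0, 70.2 and 65.6 CPM in bam ovaries, with -0.83 ± 0.14 (adjusted p = 0.00540). The list's median was -0.29. eIF4G1 had 427, 314 and 627 CPM in testes and 651, 661 and 412 CPM in bam ovaries. The 2 groups overlapped widely, and -0.32 ± 0.33 gave an adjusted p of 0.501. gw had -0.26 (adjusted p = 0.633), and the Mediator subunit MED26 had 0.05 (0.919).

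Of 5 cytoskeletal, muscle and lipid carrier genes, bt and the kinesin gene Kif3C fell and none rose, where 16.3% of all genes were lower. bt had 46.3, 46.7 and 149 CPM in testes and 620, 665 and 213 CPM in bam ovaries, so that the highest testis was near the lowest bam ovary. Its log2 fold change was -2.60 ± 0.66 (adjusted p = 0.0255). It was -2.33 without testis replicate 1, -2.35 without testis replicate 2 and -3.45 without testis replicate 3. bt is a muscle gene, and the 19 muscle markers had a median of -2.65 in the same comparison. The part of muscle in the value of bt was not tested. The call of bt was lost without testis replicate 1 (adjusted p = 0.0818), bam ovary replicate 1 (0.0766) or bam ovary replicate 2 (0.0807), and that of Kif3C, at -1.76 (adjusted p = 0.0151), without the same libraries (0.0576, 0.0539 and 0.0564).

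Of the 21 tested members outside these lists, 8 fell and 2 rose, where 16.3% of all genes were lower and 16.4% higher, and the median was -0.47. Beside CG31999 and CG1674, CG33521 had 10.6, 13.7 and 19.5 CPM in testes and 58.1, 55.6 and 41.0 CPM in bam ovaries, with -1.81 ± 0.27 (adjusted p = 0.00337). CG32017 fell with -1.89 ± 0.32 (adjusted p = 0.00564). The others that fell were CG33941 with -0.77 (adjusted p = 0.0123), RhoGAP102A with -1.93 (0.0213), dpr7 with -1.42 (0.0219) and the ubiquitin ligase gene Rnf11 with -0.56 (0.0371), and without testis replicate 1 their adjusted p-values were 0.0764, 0.0743, 0.0885 and 0.144. The 2 that rose were modest. CG11076, at 1029711 to 1031757, had 217, 263 and 199 CPM in testes, against 140, 152 and 163 CPM in bam ovaries and between 111 and 135 CPM in the other ovaries. The testes were above all ovaries, with 0.57 ± 0.14 (adjusted p = 0.0231). CG11076 shares 191 exon bases with ATPsynbeta on the other strand, which averaged 1636 ± 235 CPM in testes and 1869 ± 201 CPM in bam ovaries (SD, n = 3 each) and did not pass (-0.20, adjusted p = 0.426). CG31997 had 49.7, 87.9 and 30.5 CPM in testes and 24.5, 25.0 and 26.8 CPM in bam ovaries, with 1.11 ± 0.34 (adjusted p = 0.0455), and its testes overlapped the RNAi ovaries, which ran from 23.0 to 53.1 CPM. Without bam ovary replicate 1 the adjusted p was 0.107 for CG11076 and 0.134 for CG31997, and both calls were also lost with upper-quartile scaling.

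**Figure D4:**
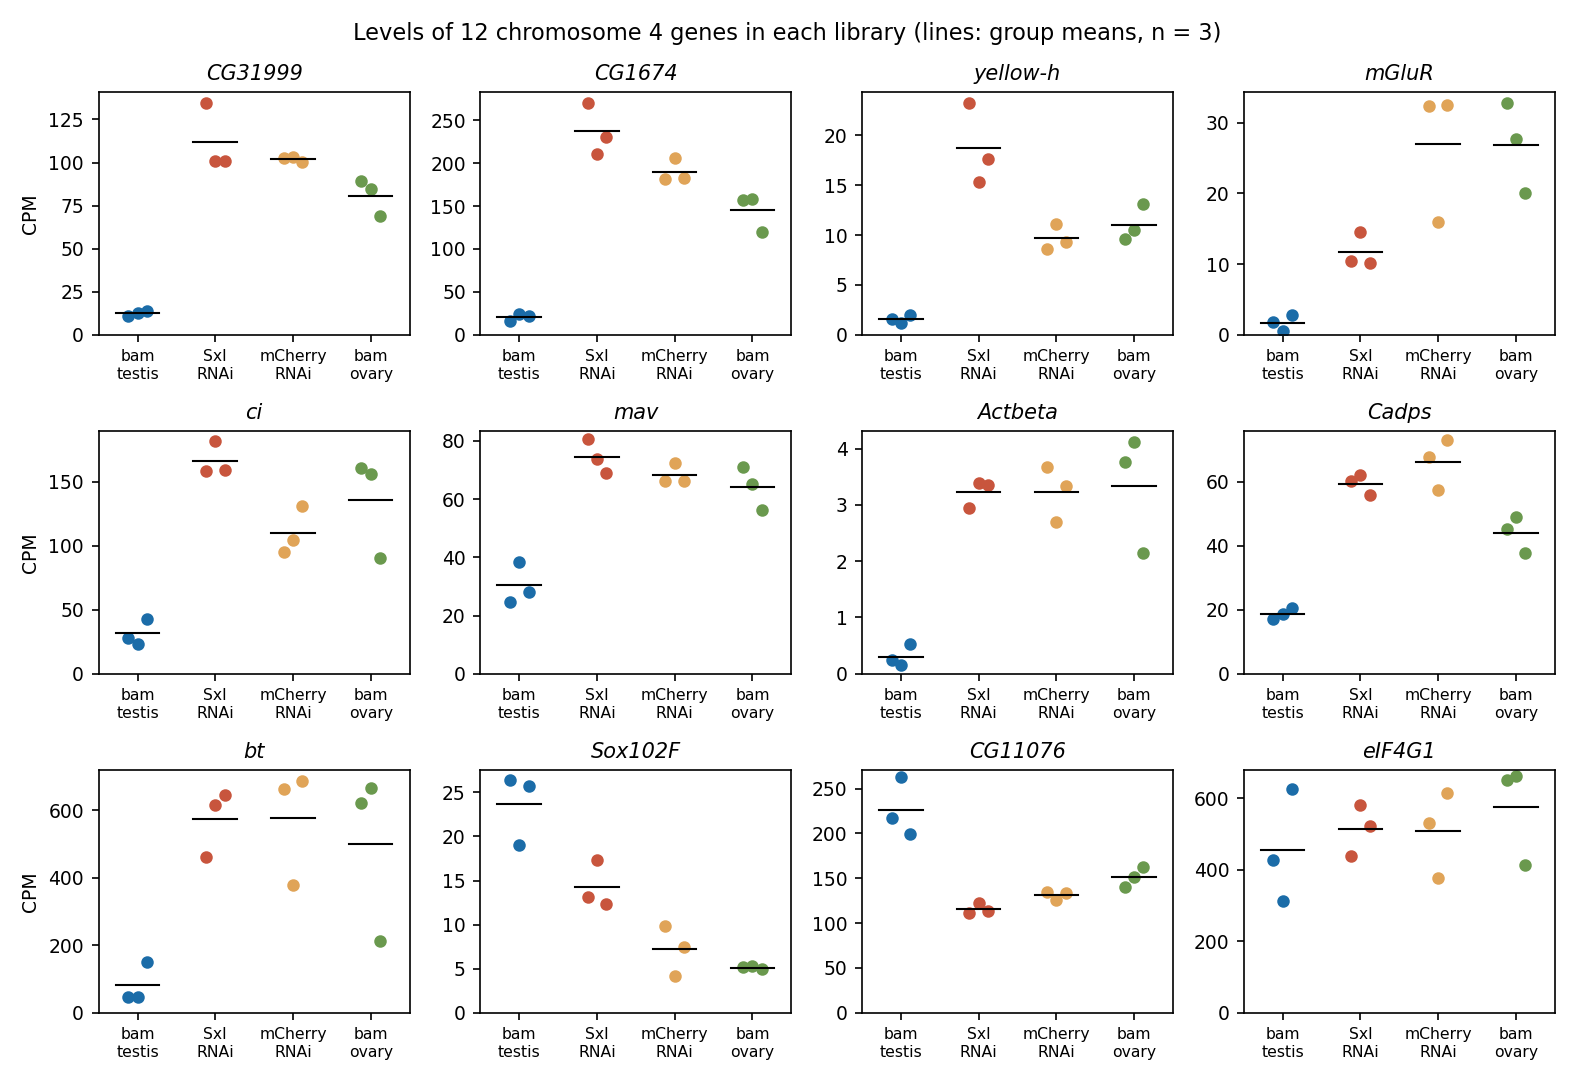
CPM of 12 chromosome 4 genes in every library, in the order bam testes, Sxl RNAi ovaries, mCherry RNAi ovaries and bam ovaries, with points for libraries and a line for the mean of each group (n = 3). CG31999, CG1674, yellow-h, mGluR, ci and Actbeta have no testis as high as any ovary, Sox102F and CG11076 have every testis above every ovary, and eIF4G1 overlaps across groups.

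In either direction 30 members were called, where 32.7% of all genes were. Of the 30 calls, 13 passed the threshold in all 15 alternative fits: Sox102F, CG31999, CG1674, yellow-h, mGluR, ci, sv, Actbeta, mav, Cadps, CG33521, CG32017 and Pur-alpha. Leaving out 1 library ended 16 of the other calls in at least 1 case, and 17 members were called without testis replicate 1, 17 without bam ovary replicate 1 and 15 without bam ovary replicate 2. Calls over all genes fell too, to 20.5%, 20.2% and 19.3% of genes in those fits.

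The same testes were also set against the other ovaries, so these comparisons share their testis libraries with the one above. Against Sxl RNAi ovaries, 32 of 72 members fell and 2 rose, where 21.0% of all genes were lower and 20.1% higher, and the members' median was -0.71. Against mCherry RNAi ovaries, 30 of 74 fell and 2 rose, where 20.8% of all genes were lower and 20.9% higher, with a median of -0.70. The 2 that rose were Sox102F and CG11076 in both. Sox102F had a log2 fold change of 0.71 ± 0.20 over Sxl RNAi ovaries (adjusted p = 0.0311) and 1.75 ± 0.33 over mCherry RNAi ovaries (adjusted p = 0.00673), beside 2.21 over bam ovaries. The call over Sxl RNAi ovaries was lost without 1 of 4 libraries, with an adjusted p of 0.110 without Sxl RNAi replicate 3, 0.107 without Sxl RNAi replicate 1 or testis replicate 1, and 0.0771 without testis replicate 3. CG11076 had 0.95 ± 0.15 over Sxl RNAi ovaries (adjusted p = 0.00341) and 0.80 ± 0.14 over mCherry RNAi ovaries (adjusted p = 0.00488).

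apolpp, the precursor of the lipid carrier apolipophorin, differed in its calls with the ovaries it was set against. It had 13.2, 15.8 and 23.5 CPM in testes, 124, 104 and 78.0 CPM in Sxl RNAi ovaries, 114, 142 and 92.0 CPM in mCherry RNAi ovaries and 22.3, 64.0 and 30.2 CPM in bam ovaries. It fell in testes against Sxl RNAi ovaries (-2.56, adjusted p = 0.000695) and against mCherry RNAi ovaries (-2.70, adjusted p = 0.000737), while against bam ovaries the groups overlapped and -1.14 did not pass (adjusted p = 0.0920). Between the control ovaries themselves, mCherry RNAi over bam, it had 1.57, which did not pass in edgeR either (adjusted p = 0.0630). DESeq2 did call it there, with 1.55 (adjusted p = 0.000627).

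**Figure D5:**
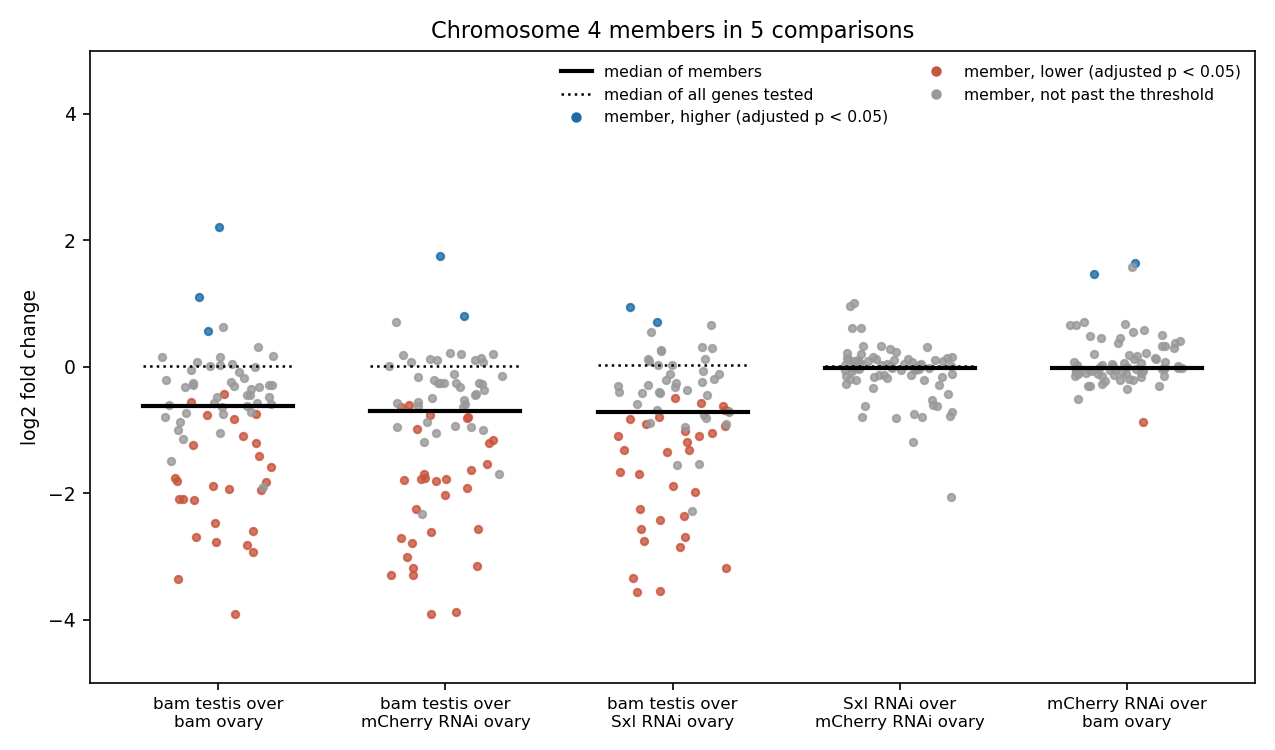
Log2 fold change of every tested chromosome 4 gene in 5 comparisons, with the members' median and the median of all genes tested marked in each (n = 3 libraries per group). In the comparisons that contain testes the members' medians lie at -0.61, -0.70 and -0.71, and between ovary groups they lie at -0.015 and -0.014.

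Knockdown of Sxl moved few of all genes past the threshold, and no chromosome 4 gene. Of 75 members tested in Sxl RNAi over mCherry RNAi ovaries, edgeR called 0, where 0.209% of all 10059 genes were called. The count of members thus lay near that share and does not set them apart. At an unadjusted p under 0.05 there were 13 members, and 11.7% of all genes were under that p. The members' median log2 fold change was -0.015. DESeq2 called 4 members, yellow-h, Mitf and ci as higher and mGluR as lower, where it called 2.63% of the 11244 genes to which it gave an adjusted p.

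The values of these 4 lay as follows. yellow-h had 23.2, 15.3 and 17.6 CPM in Sxl RNAi ovaries and 8.59, 11.1 and 9.29 CPM in mCherry RNAi ovaries, with no overlap, and its log2 fold change of 0.97 ± 0.19 had the smallest adjusted p of any member, 0.141. ci had 158, 182 and 159 CPM in Sxl RNAi ovaries and 95.0, 104 and 131 CPM in mCherry RNAi ovaries, with 0.61 (adjusted p = 0.188). mGluR had 10.4, 14.6 and 10.2 CPM in Sxl RNAi ovaries and 32.3, 16.0 and 32.4 CPM in mCherry RNAi ovaries, with -1.18 (adjusted p = 0.210). The groups did not overlap for either gene, though the lowest mCherry RNAi library of mGluR stood close to the highest Sxl RNAi library. Of all genes, 8.5% had every Sxl RNAi library above every mCherry RNAi library, and 9.64% had them below. Mitf had 85.7, 97.0 and 79.0 CPM in Sxl RNAi ovaries and 64.2, 50.9 and 58.2 CPM in mCherry RNAi ovaries, with 0.61 (adjusted p = 0.166). Sox102F, the member with the largest rise in testes over bam ovaries, had 13.2, 17.3 and 12.3 CPM in Sxl RNAi ovaries and 9.89, 4.22 and 7.43 CPM in mCherry RNAi ovaries, with 1.00 ± 0.32 (adjusted p = 0.294).

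The sex effect and the Sxl effect were compared directly, as the difference between testes over bam ovaries and Sxl RNAi over mCherry RNAi ovaries in a fit to all 12 libraries. The difference was negative and past the threshold for 20 of 75 members and positive for 2, where 13.7% of all 10382 genes were negative and 11.9% positive. The members' median difference was -0.73. It was -2.83 for CG31999 (adjusted p = 4.96e-06), -3.13 for CG1674 (5.58e-06), -3.74 ± 0.34 for yellow-h (1.61e-05) and -2.70 for ci (0.000281). Mitf, which edgeR called in neither comparison by itself, had a difference of -1.05 ± 0.20 (adjusted p = 0.00236). For CG11076 it was 0.76 (adjusted p = 0.00755). For Sox102F it was 1.22 ± 0.38 (adjusted p = 0.0378), and leaving out any 1 of 9 libraries brought that adjusted p above the threshold, to 0.0959 at most.

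Of 75 members tested in mCherry RNAi over bam ovaries, 2 rose and 1 fell, where 3.78% of all genes were higher, 2.32% lower and 6.11% called in either direction, so the members' count lay near that of all genes. The members' median was -0.014, and DESeq2 called 8 of them, where it called 11.4% of the 11071 genes to which it gave an adjusted p. CG1909 had 9.16, 6.74 and 5.34 CPM in mCherry RNAi ovaries and 2.28, 2.12 and 2.35 CPM in bam ovaries, with 1.65 ± 0.26 (adjusted p = 0.0179). Ekar, a kainate-type glutamate receptor subunit, had 6.03, 3.20 and 4.30 CPM in mCherry RNAi ovaries and 1.71, 1.82 and 1.34 CPM in bam ovaries, with 1.47 ± 0.31 (adjusted p = 0.0413). Kif3C had 5.96 ± 0.305 CPM in mCherry RNAi ovaries and 10.9 ± 0.74 CPM in bam ovaries (SD, n = 3 each), with a log2 fold change of -0.87 ± 0.15 (adjusted p = 0.0222). None of the 3 genes overlapped between groups, where 16.9% of all genes lay wholly above and 14.4% wholly below. Each call was lost when bam ovary replicate 1, bam ovary replicate 2 or mCherry RNAi replicate 1 was left out. The adjusted p-values were then 0.0717, 0.0807 and 0.0601 for CG1909, 0.114, 0.112 and 0.129 for Ekar, and 0.0963, 0.105 and 0.107 for Kif3C.

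Pof, egg and the Heterochromatin Protein 1 gene, which act on chromosome 4 and lie elsewhere, did not pass the threshold in testes over bam ovaries. Pof had 26.8, 28.1 and 30.3 CPM in testes, against 37.3, 34.3 and 37.9 CPM in bam ovaries. All testes were below all bam ovaries, and -0.36 ± 0.12 gave an adjusted p of 0.0656; over Sxl RNAi ovaries Pof fell with -0.38 (adjusted p = 0.0418). egg averaged 167 ± 20.6 CPM in testes and 173 ± 7.37 CPM in bam ovaries (SD, n = 3 each), with -0.04 (adjusted p = 0.863). The Heterochromatin Protein 1 gene averaged 330 ± 58.3 CPM in testes and 259 ± 29.9 CPM in bam ovaries, with 0.34 (adjusted p = 0.164).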

How the data were processed

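Per the labels' protocols, 200 ng of gonad RNA went into each TruSeq RNA v2 library, a kit without strand marking. For each library the authors deposited unnormalized read counts by gene ID. The submitters' processing notes list HTSeq 0.9.1, TopHat2 2.1.1, Bowtie2 2.2.9, DESeq and FastQC, with build BDGP6. They do not say how counting treated strand and overlaps. HTSeq's 5 summary lines, 12.0% to 17.1% of the reads of a library, were left out. Among them, reads set aside as ambiguous between genes were 3.59% to 3.89%, and reads outside any gene 0.503% to 1.02%. Of 17559 gene IDs, 17253 matched an Ensembl annotation of BDGP6 that may differ in release from the one counted. Without strand, reads cannot be assigned between members and overlapping opposite genes, and 24 members share exon bases with one.

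Each comparison was fitted over all genes with edgeR 4.0.16 (R 4.3.3), using its 6 libraries alone (TMM scaling, the filterByExpr filter, robust quasi-likelihood F test, Benjamini-Hochberg adjustment over all genes tested). The procedure was checked on simulated counts, with changes placed on genes of at least 5 CPM. For testes over bam ovaries it recovered 33% of 2-fold and 88% of 4-fold changes, with 5 of 126 calls false. For Sxl RNAi over mCherry RNAi ovaries it recovered 64% and 98%, with 11 of 173 calls false. For mCherry RNAi over bam ovaries it recovered 66% and 99%, with 9 of 174 calls false. The simulation changed 100 genes per fold size, far fewer than were called in testes over bam ovaries, and drew counts from the fitted spread. Its rates may therefore not carry over to the data. SE is the log2 fold change divided by the square root of F. CPM levels use scaling factors over all 12 libraries, so ratios of printed levels can differ slightly from fitted values. Levels between genes were compared per kb of longest transcript. No 2 replicates were alike within sampling error: the lowest chi-square of a pair was 9.98 times its degrees of freedom.

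Named genes were, per comparison, up to 12 called lower and 12 called higher by smallest p, up to 5 of each role list by smallest p over bam ovaries, the 5 highest by mean CPM, and Sxl, Pof, egg and the Heterochromatin Protein 1 gene; members named beyond this were chosen after their values were seen. The members, lists and tests were chosen with earlier results of these data known. Alternatives were other scalings, filters, DESeq2 1.42.0, one fit to all 12 libraries, a replicate block, leaving out each library and, added later, removal of a transcript-length trend. Promoter and protein sequences were not analysed here.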

Additional observations from a re-analysis of the deposited data

How the results depend on the processing

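No alternative turned the direction of a call. In testes over bam ovaries, where 30 members were called, other scalings, filters and DESeq2 gave 29 to 37, the fit to all 12 libraries gave 42, a further requirement of an absolute log2 fold change over 1 gave 24, removal of the length trend 43, and leaving out 1 library between 15 and 43. Over all genes, the fit used above called 3186 of 9738, and the fit to all 12 libraries 4248 of 10382. The fold requirement left 2124 of 9738, removal of the length trend gave 4740 of 9738, and leaving out 1 library gave 1924 to 3539. For members, the leave-one-out range was 24 to 50 beside 32 over mCherry RNAi ovaries, 18 to 48 beside 34 over Sxl RNAi ovaries and 16 to 40 beside 22 for the difference between effects. Over all genes it was 2701 to 4788 beside 4177, 2544 to 4606 beside 4004 and 2090 to 3228 beside 2658, in that order. Without testis replicate 3, the testis with the highest share of counts on members, the members' medians were -0.96, -1.03 and -1.06 over bam, mCherry RNAi and Sxl RNAi ovaries. The medians without each other library are not given here. For Sxl RNAi over mCherry RNAi, DESeq2 gave 4 and every other setting 0, where those other settings called between 3 and 47 of all genes. For mCherry RNAi over bam ovaries, where 3 were called, DESeq2 gave 8, the fit to all libraries 5, removal of the length trend 7 and leaving out 1 library 0 to 3. Over all genes these gave 1261 of 11071, 654 of 10382, 1432 of 9940 and 153 to 388, beside 607 of 9940. Replicate numbers gave no steady pairing of the libraries. The correlations between same-numbered libraries of their deviations from group means ran from -0.56 to 0.40 over 5 comparisons, and in no comparison were all 3 positive. For testes and mCherry RNAi ovaries they were -0.04, 0.40 and 0.30. With the numbers as a replicate block, 14 members were called in testes over bam ovaries and 0 in mCherry RNAi over bam ovaries. Over all genes the block called 1696 of 9738 and 93 of 9940 in those comparisons. In testes over mCherry RNAi ovaries it raised the calls over all genes from 4177 to 5320 of 10022. The cause of these shifts was not tested.

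Few reads limit the values of faint members: fuss, for example, had 13 counts in all over the 3 testes and 0 in one of them.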

Other observations

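4 members were too faint to test in testes over bam ovaries. JYalpha, a sodium pump subunit gene known for its part in male fertility, had 2 counts summed over the testes and 33, 34 and 17 over the Sxl RNAi, mCherry RNAi and bam ovaries. CG32006 had 2 counts over the testes, and 10, 52 and 25 over the ovary groups in that order. fd102C had 2 over the testes, and 9, 36 and 35. Mpv17 had 1 over the testes, and 5, 7 and 10. All 4 thus had their fewest reads in testes. CG32006 could be tested in comparisons that held mCherry RNAi ovaries, its highest group, through which it passed the filter on low counts. That favours a low value in the group set against them. CG32006 fell in testes over mCherry RNAi ovaries, with a log2 fold change of -3.92 ± 0.63 (adjusted p = 0.00351). It did not pass in Sxl RNAi over mCherry RNAi ovaries, where its -2.06 (adjusted p = 0.169) was the lowest value of any member, nor in mCherry RNAi over bam ovaries (0.66, adjusted p = 0.317).

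The chromosome 4 genes left out by symbol did not pass the threshold in testes over bam ovaries. RpS3A, a ribosomal protein gene, had 2742, 3876 and 2110 CPM in testes and 2742, 2880 and 3810 CPM in bam ovaries, with -0.13 (adjusted p = 0.743). The groups overlapped, and so did those of ATPsynbeta.

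The 24 members that share exon bases with a gene on the other strand and the members that share none both fell more often than they rose in testes over bam ovaries. Of 23 tested with such an overlap, 11 fell, with a median log2 fold change of -1.005, and of 50 without, 16 fell, with a median of -0.58, where 16.3% of all genes were lower.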
